A study of Rattus norvegicus with 24 samples.

Results

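In the left ventricle of the rat, a small set of genes stood higher than in sham animals at each of 3 times after spinal cord transection, namely 1 day, 3 days and 12 weeks. The members were chosen from the measured values themselves. Each gene ID of the count table was used once, counts were scaled by the library total to counts per 1000000 (CPM), and genes with a mean of at least 2 CPM over the 24 libraries were kept. A gene is a member when its group mean of log2(CPM + 0.5) exceeded the sham mean by at least 0.6, which is 1.52-fold, at each of the 3 times. This gave 81 members of 23098 gene IDs, and of the 11567 IDs that reached the CPM minimum, or 0.7% of the latter.

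The tissue was the left ventricular free wall of male Wistar rats at mid-ventricular level. The 4 groups hold 6 libraries each. The sham rats had the dura opened at a high thoracic level with the cord left intact, and their tissue was collected 7 days after surgery. In the other rats the cord was cut through completely, also high in the thorax (spinal cord injury), and the heart was sampled 1 day, 3 days or 12 weeks later. Thus no injury group is matched to sham in time since surgery, and the difference between 12 weeks and sham holds those weeks as well as the injury. The labels give the strain and sex but no age, and do not say in so many words that each library is a different rat. If some are not, the spread between libraries is in part technical.

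As background, the sympathetic nerve cells that speed the heart and strengthen its beat lie in the upper thoracic cord and take their drive from the brainstem through descending pathways. A complete high thoracic transection cuts that drive, while the vagus nerve, which slows the heart, leaves the brainstem directly and is spared. Blood pressure and cardiac load are known to fall after such injuries, and left ventricular mass is known to decline with time.

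The deposited table gives Ensembl gene IDs with no names, and the gene table at hand paired none of them with a symbol, so that 0 IDs matched. The members are therefore described by their values, no pathway or cell type list was counted, and the labelled tissue could not be checked against its markers. In bulk tissue a higher CPM from more cells of a type and one from more RNA per cell cannot be told apart. No promoter sequence could be assigned to a member for the same reason.

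The libraries held 15002476 to 70340174 counts, and 2 of them (3 day replicate 5 and 12 week replicate 1) had under 20000000. The library numbers given in the labels fall into an earlier block, 57 to 68, with all sham and 3 day libraries, and a later block, 77 to 88, with all 1 day and 12 week libraries. Of the comparisons below, 3 days with sham and 12 weeks with 1 day each lie within a block, and no other does. A library that stood apart was 12 week replicate 3, which had the lowest value of its group in 55.8% of the 11567 genes, where its median gene lay 0.17 below the sham mean on the log2 scale.

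Passing the rule at all 3 times was uncommon. At 1 day 433 genes lay at least 0.6 above sham, at 3 days 281 and at 12 weeks 334, which are 3.74%, 2.43% and 2.89% of the genes that reached the CPM minimum. The 81 members made up 18.7%, 28.8% and 24.3% of these lists in order of time. The 3 lists share the same 6 sham libraries, so a gene whose sham values happened to be low is favoured in all of them. Another 121 genes passed at 1 and 3 days but not at 12 weeks, 36 passed at 1 day and 12 weeks but not at 3 days, and 9 passed at 3 days and 12 weeks but not at 1 day. With the sign turned round, the same rule gave 63 genes that were lower at all 3 times.

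The members were mostly genes of modest level. Their mean CPM over all libraries ranged from 2.02 to 502, with a median of 11.3, against 19.8 for all genes that reached the minimum. Between 2 and 5 CPM lay 18 members, or 1.05% of the genes at that level, and between 5 and 20 CPM lay 36, or 0.879%. Between 20 and 100 CPM there were 21 members (0.471%), and 6 members lay above 100 CPM (0.462% of the genes there). No member had a count of 0 in any library, and the smallest count of a member in a sham library was 4. All 81 also passed the filter on low counts used for the tests. On 3 of the IDs the table holds more than 1 line with identical counts, and each was used once.

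Added together, the members took a small share of all counts, which was larger in every injury library than in any sham library. The share was 0.155 to 0.188% in the sham libraries, with a mean of 0.166% ± 0.0127 (SD, n = 6). The injury libraries had 0.316 to 0.386% (1 day), 0.28 to 0.336% (3 days) and 0.349 to 0.419% (12 weeks). The 3 most abundant members made up 34.4 to 40.7% of this sum, depending on the group. These values follow from the choice of the members and are given as a description.

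The differences from sham chose the members and carry no test. On the log2(CPM + 0.5) scale, which understates the change of low genes, the median difference over the 81 members was 1.00, 0.88 and 0.88 in order of time. The quartiles were 0.83 and 1.22 at 1 day, 0.72 and 1.15 at 3 days, and 0.69 and 1.25 at 12 weeks. A difference of at least 1, a doubling on that scale, was reached by 40 members at 1 day, by 31 at 3 days and by 31 at 12 weeks, and one of at least 2 by 5, 2 and 5 members. The median over all 11567 genes was 0.009, -0.004 and 0.021 in the same order. The largest of a member's differences fell at 1 day in 30 members, at 3 days in 22 and at 12 weeks in 29.

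The members with the largest single differences had unlike courses. The one with the largest difference at 1 day stood 3.28 above sham then, 2.11 at 3 days and 0.75 at 12 weeks. That with the largest difference at 3 days had 2.21, 2.44 and 1.33 in order of time. The one with the largest difference at 12 weeks had 1.22, then 0.69, then 2.33. These extremes were picked after their values were seen. Most members were flatter: the largest and the smallest difference of a member lay less than 0.6 apart in 62 of the 81 and less than 0.3 apart in 29.

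**Figure D1:**
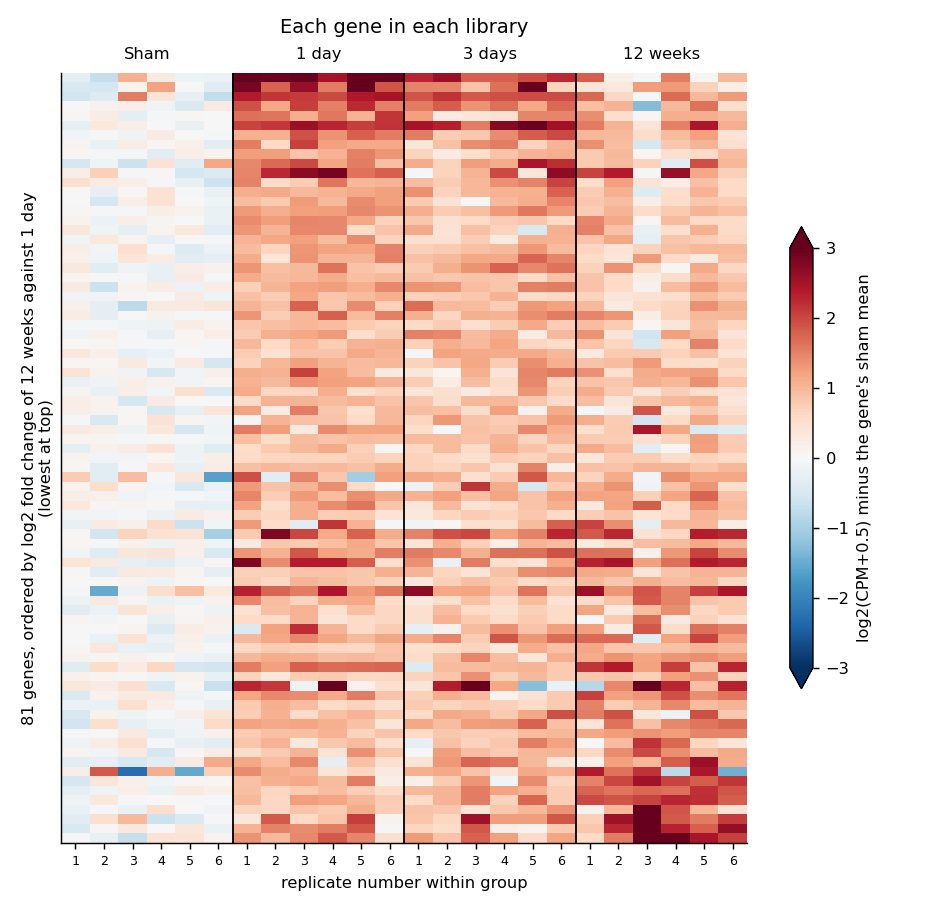
Each row is 1 of the 81 members and each column 1 of the 24 libraries, and the colour gives log2(CPM + 0.5) minus the member's sham mean (colours end at -3 and 3). The sham block is pale, the injury blocks are mostly red, and 12 week replicate 3 holds both the darkest values at the bottom and pale or blue ones higher up.

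The medians of single libraries show how evenly the rise was spread. For each library the distance of each member to its own sham mean was taken and the median over the 81 members noted. The 6 sham libraries had medians from -0.05 to 0.08. At 1 day the medians ran from 0.86 to 1.10, with a mean of 1.02 ± 0.083 (SD, n = 6), and replicate 6 was the lowest. At 3 days they ran from 0.72 to 1.06 with a mean of 0.91 ± 0.13 (SD, n = 6), and at 12 weeks from 0.70 to 1.08 with a mean of 0.91 ± 0.12 (SD, n = 6). Every injury library lay above every sham library, and the 3 injury groups overlapped one another. The members were chosen on their distance to this same sham mean, so their place above sham is a description. The lowest library was 3 day replicate 1 at 3 days and 12 week replicate 3 at 12 weeks, which are also the libraries whose median over all genes lay lowest, at -0.16 and -0.17. Their part in the members' lower medians was not tested. Above its sham mean stood at least 73 of the 81 members in each injury library other than 12 week replicate 3, where 67 did. These counts follow from the rule as well and have no share of all genes beside them, so nothing is read from them.

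**Figure D2:**
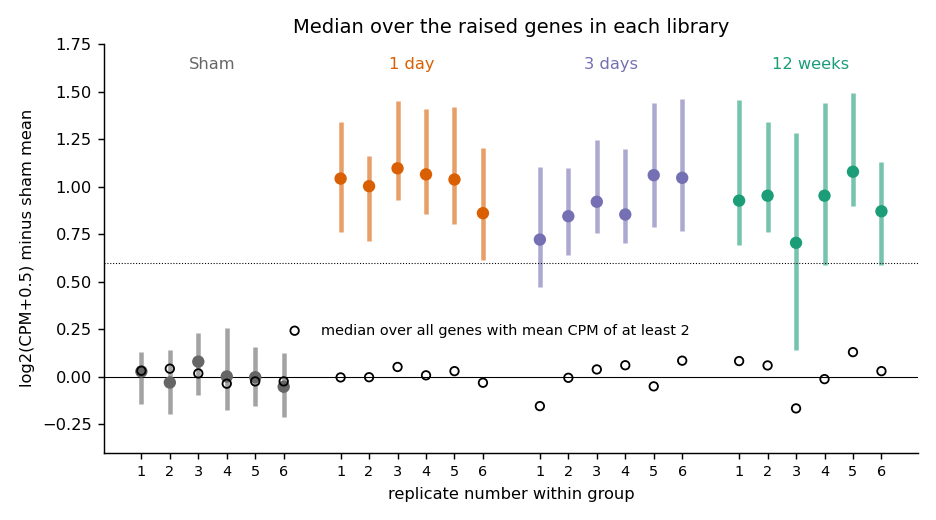
Filled points give the median over the 81 members of log2(CPM + 0.5) minus the sham mean in each library, and bars run from the lower to the upper quartile. Open circles give the same median over all 11567 genes, and the dotted line marks 0.6. The sham medians lie between -0.05 and 0.08 and the injury medians between 0.70 and 1.10, and the bar of 12 week replicate 3 is the widest.

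Because 1 sham group serves all 3 comparisons, the spread of its libraries bears on every member. The SD of the 6 sham libraries on the log2(CPM + 0.5) scale had a median of 0.276 over the members, with quartiles of 0.172 and 0.334. Over all genes that reached the CPM minimum the median was 0.123. The members were also the more variable genes at like levels, with median sham SDs of 0.30 against 0.21 for genes of 2 to 5 CPM, 0.27 against 0.14 for 5 to 20 CPM, 0.25 against 0.10 for 20 to 100 CPM and 0.23 against 0.09 above 100 CPM. The rule used these sham values, so the contrast is a description.

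From the lowest to the highest sham library the members spanned a median of 0.704, against 0.327 for all genes, and 18 members spanned at least 1. A member's smallest difference from sham exceeded its whole sham range in 41 of the 81 members and did not in 40. Divided by the sham SD, the smallest difference had a median of 2.76 and was over 2 in 66 members. It was under 1 in 2 members. The first of these had a smallest difference of 0.806 beside a sham SD of 1.59, with 15 of the 18 injury libraries within its sham range, and the second had 0.68 beside 0.932, with 7 of 18.

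No single sham library was the lowest in most members. Sham replicate 6, the shallowest of the 6 with 27097306 counts, was the lowest in 24 members, or 29.6%, where it was the lowest in 20.9% of all 11567 genes. Sham replicate 4 was the lowest in 18 members and each of the others in 8 to 11. Sham replicate 3 was the highest in 21 members. Applied with 1 sham library left out at a time, the rule gave 75 to 88 genes, of which 70 to 75 were among the 81. Of the 81 members, 54 stayed in whichever sham library was left out, and 41 stayed in whichever of the 24 libraries was left out.

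**Figure D3:**
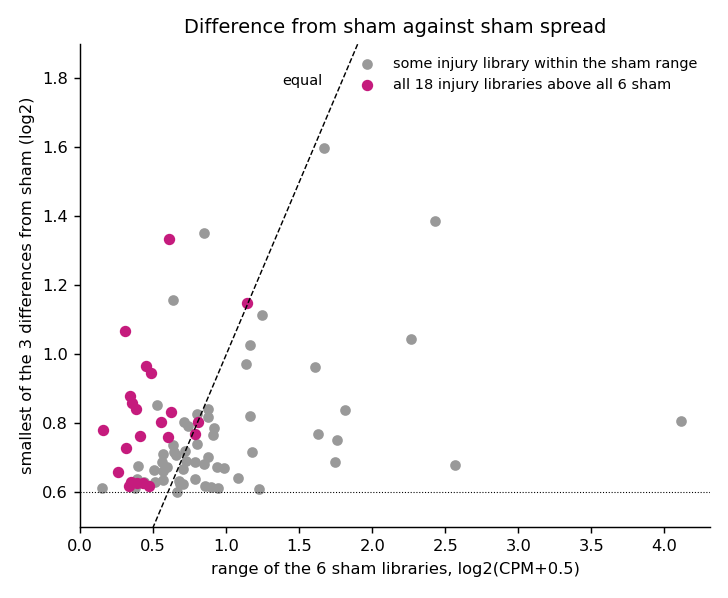
Each point is 1 of the 81 members, with the range of its 6 sham libraries on the x axis and the smallest of its 3 differences from sham on the y axis, both in log2 units. The dashed line marks equality and the dotted line 0.6. To its left lie 41 members, and the 22 coloured members are those whose 18 injury libraries all lay above all 6 sham libraries.

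The number of members whose libraries stood clear of sham was lower at 12 weeks than at 1 and 3 days. At 1 day all 6 libraries lay above all 6 sham libraries in 60 of the 81 members, where 8.26% of the 11567 genes did so. At 3 days this held for 51 members (3.69% of all genes) and at 12 weeks for 34 (4.6% of all genes). The rule used these values, so nothing is read from the distance to the background. The count at 12 weeks rests on 1 library: 12 week replicate 3 lay within the sham range in 30 members, the other 12 week libraries in 5 to 13, and without it 53 members lay clear of sham. In 29 of the 47 members that overlapped with sham at 12 weeks, just 1 library did so.

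All 18 injury libraries lay above all 6 sham libraries in 22 members. Over all 11567 genes 45 did so, or 0.389%, and the 23 that are no members had a smaller difference at some time. Without 12 week replicate 3 the 22 members became 35. The 22 had a median sham SD of 0.156 and median differences of 0.95, 0.89 and 0.94 in order of time. The other 59 members had a median sham SD of 0.296 and medians of 1.08, 0.87 and 0.85. A narrow sham range makes it easier for all injury libraries to lie above it, so the choice of the 22 favours a low sham SD and nothing is read from that contrast. The gap between the lowest injury and the highest sham library was at most 0.519 among them, with a median of 0.164. Of the 10 members whose smallest difference was at least 1, just 3 belonged to the 22, and their median sham SD was 0.438.

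The threshold cut through a dense stretch of genes. The 2 members nearest to it had smallest differences of 0.601 (at 12 weeks, beside 1.10 at 1 day and 1.15 at 3 days) and 0.609 (at 3 days, beside 0.771 and 0.878). The nearest genes outside had 0.597 and 0.588, both at 12 weeks, beside 1.12 and 0.808 for the first and 0.882 and 0.920 for the second at 1 and 3 days. Under 0.7 lay the smallest difference of 35 members, and 34 genes that are no members had one of 0.5 to under 0.6. Membership near the line is therefore a matter of small differences.

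The comparisons between the injury times were not used by the rule, although the same injury libraries entered both. The sham libraries are in neither side of these comparisons, but they share the model and so enter its filter and its estimate of the spread. They were tested with edgeR's quasi-likelihood test over all 15065 genes with enough counts, with Benjamini-Hochberg adjustment, and a gene is called at an adjusted p under 0.05. Between 12 weeks and 1 day, 10 members were higher and 15 lower at 12 weeks, where 17.8% and 16.1% of all genes tested were called in these directions. Together they made up 30.9% of the members, beside 33.9% of all genes tested and 37.5% of those that reached the CPM minimum. Between 12 weeks and 3 days, 13 members were higher and 11 lower at 12 weeks, beside 16.0% and 15.3% of all genes tested. Without the 2 libraries under 20000000 counts, 14 members were higher and 6 lower, where 15.3% and 14.5% of all genes were. Called whichever of the 24 libraries was left out were 5 of the 11 lower and 10 of the 13 higher members. For 12 weeks against 1 day these were 10 of the 15 lower and 5 of the 10 higher members. For 3 days against 1 day they were 0 of the 3 lower members. Such counts have no share of all genes beside them, so nothing is read from them. Together the 24 members called between 12 weeks and 3 days were 29.6% of the members. This stands against 31.3% of all genes tested and 35.6% of those that reached the CPM minimum. The 12 week and 3 day libraries fall into separate blocks of library numbers, so block and time cannot be told apart in this comparison. Between 3 days and 1 day no member was called higher by edgeR and 3 were lower at 3 days, where 1.23% of all genes were higher and 1.51% lower. The 3 are 3.7% of the members, beside 2.74% of all genes tested and 3.25% of those that reached the CPM minimum. By an unadjusted edgeR p under 0.05 there were 2 members higher and 9 lower at 3 days than at 1 day. The like counts were 13 higher and 19 lower for 12 weeks against 1 day, and 16 and 13 for 12 weeks against 3 days. They have no share of all genes beside them, so nothing is read from them. Neither DESeq2 nor limma-voom called a member higher at 3 days than at 1 day, where 2.44% and 1.54% of all genes were. A joint edgeR test of any difference among the 3 times called 28 members, or 34.6%, where 38.4% of all genes tested and 43.2% of those that reached the CPM minimum were called. With all 24 libraries these shares lie near those of the whole table, and the counts are therefore no result about the members as a set. The median log2 fold change over the members was -0.04 from 1 day to 12 weeks, -0.07 from 1 day to 3 days and 0.01 from 3 days to 12 weeks.

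**Figure D4:**
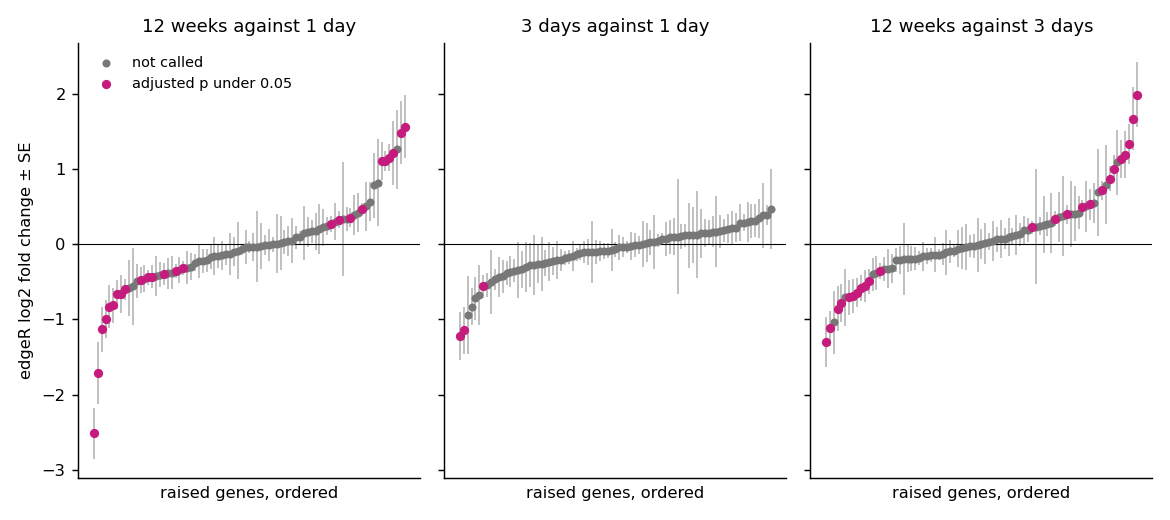
Each panel orders the 81 members by the edgeR log2 fold change between 2 injury times, with bars of 1 SE, and colours those with an adjusted p under 0.05. The called members lie at both ends for 12 weeks against 1 day (15 lower, 10 higher) and against 3 days (11 lower, 13 higher), and 3 are called between 3 days and 1 day.

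The 15 members that fell from 1 day to 12 weeks were still above sham by the rule. Their edgeR log2 fold changes of 12 weeks against 1 day ran from -2.51 to -0.32 with a median of -0.66. Their median differences from sham were 1.28 at 1 day, 1.15 at 3 days and 0.75 at 12 weeks. In all 15 the 6 libraries of 1 day lay above all sham libraries, and at 12 weeks this held for 4. Of all 11567 genes, 8.26% did so at 1 day and 4.6% at 12 weeks. The 15 were picked by 12 weeks against 1 day from members chosen above sham, so nothing is read from these counts. By library, the median of these 15 over the sham mean was 1.16 to 1.49 at 1 day and 0.79 to 1.30 at 3 days. At 12 weeks it was 0.06 in replicate 3 and 0.80 to 1.01 in the other 5 libraries. Replicate 3 was the lowest 12 week library in 11 of the 15, and 11 of the 15 were still called lower without it. Low values at 12 weeks favour a call as lower, so nothing is read from the place of replicate 3 in this set. Lower at 12 weeks than at both earlier times were 7 members. No share of all genes stands beside this count, so nothing is read from it.

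The 10 members that rose further from 1 day to 12 weeks had log2 fold changes of 0.27 to 1.57 with a median of 1.11. Their median differences from sham were 0.91 at 1 day, 0.87 at 3 days and 1.56 at 12 weeks. By library, their median over the sham mean was 0.59 to 1.01 at 1 day, 0.65 to 1.42 at 3 days and 1.14 to 1.87 at 12 weeks. In 4 of the 10 the 12 week libraries all lay above all 1 day libraries, and in the other 6 the groups overlapped. The 10 were picked by this same comparison and no like count over all genes stands beside it, so nothing is read from it. Replicate 3 of 12 weeks was the highest 12 week library in 4 of the 10, and 6 of the 10 were still called higher without it. Higher at 12 weeks than at both earlier times were 8 members. No share of all genes stands beside this count, so nothing is read from it.

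In 47 members none of the 3 comparisons between times was called. Their median differences from sham were 0.90, 0.83 and 0.88 in order of time, and their median mean CPM was 8.54. A missed call does not show equal levels, since the SE of a log2 fold change between times had a median of 0.22 over the members. Of the 47, all libraries stood clear of sham in 30 at 1 day, in 24 at 3 days and in 16 at 12 weeks. Of all 11567 genes, 8.26%, 3.69% and 4.6% did so in the same order. The rule used these values, so nothing is read from these counts. No member was higher at 12 weeks than at 1 earlier time and lower than at the other. No share of all genes stands beside that count or the 47, so nothing is read from either.

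The 3 members lower at 3 days than at 1 day had median differences from sham of 1.88 at 1 day, 0.80 at 3 days and 0.79 at 12 weeks. Since 1 day and 3 days fall into separate blocks of library numbers, block and time cannot be told apart here. This count depended on single libraries and ranged from 0 to 4 when each of the 24 was left out in turn. It was 0 without 1 day replicate 1, 1 day replicate 5, 3 day replicate 4 or 3 day replicate 6. It was 1 without any 1 of the 6 sham libraries, without 1 day replicate 4, without 3 day replicate 2 or 3, and without 12 week replicate 4.

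Scatter among the replicates was larger at 12 weeks than in sham. The median SD of a member within its group was 0.276 in sham, 0.288 at 1 day, 0.36 at 3 days and 0.486 at 12 weeks. For all 11567 genes the medians were 0.123, 0.136, 0.186 and 0.205. A member's SD at 12 weeks exceeded that in sham in 66 of the 81 members, or 81.5%, as it did in 80.7% of all genes. Without replicate 3 of 12 weeks the members' median SD there was 0.337 and that of all genes 0.158, and 60 members (74.1%) exceeded their sham SD, as did 68.2% of all genes. The wider scatter was thus found in most genes of the table as well. Depth differed as well, from 27097306 to 70340174 counts in sham and from 15002476 to 44709028 at 12 weeks, and its part in the scatter was not tested.

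The scatter at 12 weeks had a particular form in replicate 3. It was the lowest library of its group in 34 members and the highest in 18, so that 52 of the 81 members (64.2%) had it at 1 of the ends, as did 68.2% of all genes. Its middle members spread from 0.14 to 1.28 over the sham mean (quartiles). In the other 12 week libraries the lower quartile was 0.59 to 0.90 and the upper quartile 1.13 to 1.49. Quartiles over all genes do not stand beside these, so nothing is read from them about the members as a set.

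Only 2 of the members are printed by ID, the one with the largest smallest difference and the one with the highest mean CPM. The naming rule was written for members with a symbol and allowed at most 2 IDs without one. Which 2 to print was chosen after the values were seen. ENSRNOG00000001338 had the largest smallest difference. Its CPM was 0.849 to 3.80 with a median of 2.67 in the sham libraries, and 4.18 to 18.2 with a median of 7.07 at 1 day. At 3 days it was 5.71 to 12.7 with a median of 8.49, and at 12 weeks 3.13 to 13.2 with a median of 10.8. All libraries of 1 and 3 days lay above all sham libraries, while 2 libraries at 12 weeks, replicates 3 and 4 with 3.13 and 3.70 CPM, lay within the sham range. On the log2(CPM + 0.5) scale it stood 1.60, 1.73 and 1.63 above sham in order of time, beside a sham SD of 0.65. Between times the edgeR log2 fold changes of ENSRNOG00000001338 were 0.02 from 1 day to 12 weeks (adjusted p = 0.972, SE 0.36), 0.03 from 1 day to 3 days (adjusted p = 0.982, SE 0.36) and -0.01 from 3 days to 12 weeks (adjusted p = 0.989, SE 0.363).

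ENSRNOG00000068106 was the most abundant member. It had 180 to 298 CPM in the sham libraries with a median of 249, 445 to 714 CPM at 1 day with a median of 609, 264 to 521 CPM at 3 days with a median of 412, and 572 to 1020 CPM at 12 weeks with a median of 700. At 1 day and 12 weeks no library overlapped with sham, and at 3 days replicate 4, with 264 CPM, did. The differences from sham were 1.27, 0.69 and 1.59 in order of time, beside a sham SD of 0.28 (log2). ENSRNOG00000068106 was higher at 12 weeks than at 3 days by edgeR's test, by 0.87 on the log2 scale (adjusted p = 0.000298, SE 0.164), and every 12 week library lay above every 3 day library. The edgeR log2 fold change from 1 day to 3 days was -0.54 (adjusted p = 0.0718, SE 0.163) and that from 1 day to 12 weeks 0.33 (adjusted p = 0.118, SE 0.163), neither of them called. For ENSRNOG00000068106 the groups with the higher means, 1 day and 12 weeks, are those of the later block of library numbers. In the comparison of 12 weeks with 3 days, block and time cannot be told apart.

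**Figure D5:**
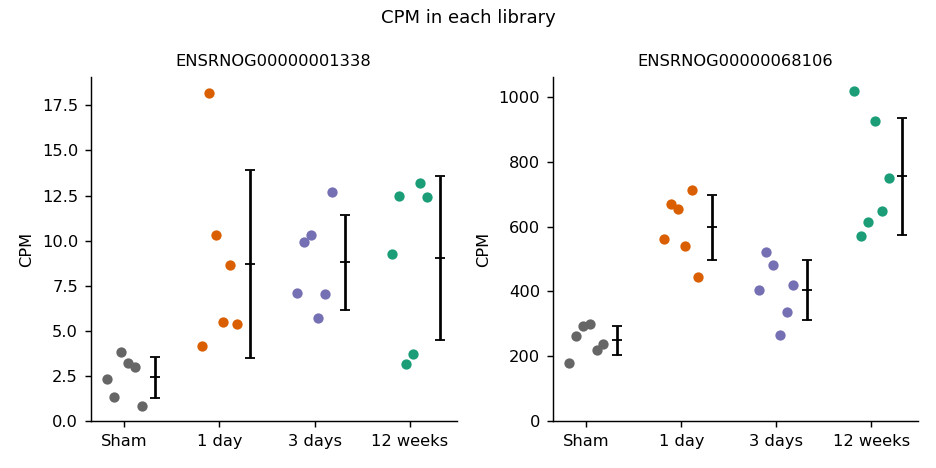
CPM of the 2 printed members in each of the 24 libraries, with points for libraries and bars for the mean and SD beside each group of 6. ENSRNOG00000001338 has 2 libraries at 12 weeks within its sham range, and ENSRNOG00000068106 lies at 572 to 1020 CPM at 12 weeks against 180 to 298 CPM in sham.

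The rule itself is a rule on size, not a test, and the same libraries gave the following counts when tested. Against sham, edgeR called 73 members higher at 1 day, 70 at 3 days and 75 at 12 weeks, where 11.9%, 8.88% and 11.3% of all genes tested were called higher. The members were chosen on these differences, so nothing is read from the counts, other than that 6 to 11 members at a time met the rule on size without passing the test.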

How the data were processed

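RNA of the left ventricle was sequenced in 24 libraries (6 per group). Per the labels' protocols, ribosomal RNA was depleted and libraries that keep the strand were sequenced from both ends (DNBSEQ). The authors deposited raw counts per gene. The build mRatBN7.2 and the tools STAR 2.7.11a, featureCounts 2.0.6 and FastQC 0.12.1 are named in the submitters' processing notes. Not given in the sources used here are the annotation release, the strand setting and the handling of multi-mapping reads, so genes that overlap or have near copies may share reads. Of 26166 lines, 781 IDs appear on more than 1 line, and each ID was used once.

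CPM was computed from column sums. Tests used edgeR 4.0.16 in R 4.3.3 (filterByExpr, TMM, 1 model over 4 groups, quasi-likelihood F test, two-sided, Benjamini-Hochberg over 15065 genes). SEs were derived from the fold change and F. DESeq2 1.42.0, limma-voom 3.58.1, other scalings, filters and left-out libraries were alternatives. On simulated counts with 200 changed genes among 15065, the test of 12 weeks against 1 day recovered 63.1% of genes changed 1.5-fold and 84.8% of those changed 2-fold, with 6 of 166 calls false. Each gene had 1 spread shared by all groups and the changed genes were drawn at random, so this does not describe the more variable members.

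The members, gene lists and rules were chosen with earlier results of these data known. The named-gene rule needs symbols; without them 2 IDs were printed, and the choice of these parts was made after seeing the values. The lists of pathways and cell types were not run.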

Additional observations from a re-analysis of the deposited data

Results flagged for a closer look

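The levels at 2 injury times differed by edgeR (adjusted p under 0.05) in 25 of the 81 members for 12 weeks against 1 day, where 33.9% of all genes tested did. They differed in 24 members for 12 weeks against 3 days (31.3% of all genes) and in 3 for 3 days against 1 day (2.74% of all genes). The members' shares of 30.9%, 29.6% and 3.7% lie near these, and in the last 2 comparisons the block of library numbers and time cannot be told apart. ENSRNOG00000068106 was among them for 12 weeks against 3 days, with a log2 fold change of 0.87. In 2 sets a library lay far from the other 5 of its group: over the 15 members lower at 12 weeks than at 1 day, 12 week replicate 3 had a median of 0.06 above the sham mean, and the gap to the next library was 0.779 of the group's range. Over the 10 members higher at 12 weeks than at 1 day, 1 day replicate 6 had a median of 0.59, with a gap of 0.714 of the range. Both sets were picked by 12 weeks against 1 day, which favours low values at 12 weeks in the first and at 1 day in the second. Nothing is read from these 2 gaps. Member by member, such gaps appeared in 17 of 324 sets of 6 libraries, or 5.25%, where chance flags about 1 in 20.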

How the results depend on the processing

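The rule kept 81 genes, and 39 with a pseudocount of 2 in place of 0.5 and 28 with a difference of 0.8, all of them among the 81. With the other settings (a pseudocount of 0.1, a difference of 0.5, other CPM minimums, group medians, TMM or DESeq2 scaling) it kept 63 to 115. Leaving out 1 of the 24 libraries at a time gave 71 to 89 members. Counts of members clear of sham were taken over the same 81 throughout. With 1 library left out they were 60 to 68 at 1 day and 51 to 55 at 3 days. They were 34 to 53 at 12 weeks and 22 to 35 at all times, the upper values of this last pair without 12 week replicate 3. Leaving out a library can only keep or raise such a count, so the lower ends are the counts with all libraries. In the same left-out fits, 12 weeks against 1 day gave 6 to 11 members higher and 12 to 18 lower. The 6 was again without 12 week replicate 3, where 15.7% of all genes were higher. For 12 weeks against 3 days the fits gave 10 to 14 higher and 8 to 12 lower. Lower at 3 days than at 1 day were 0 to 4. That last count, 3 with all libraries, was 6 with DESeq2 (2.95% of all genes) and 1 with no scaling beyond library size (1.1%). Without the 2 libraries under 20000000 counts, chosen after seeing the data, 6 in place of 11 members were lower at 12 weeks than at 3 days (14.5% of all genes). With the 2 groups compared alone in the model 8 were lower (11.4% of all genes), beside 10 in place of 13 higher (11.6%). With DESeq2 ENSRNOG00000068106 was also called lower at 3 days than at 1 day, with a log2 fold change of -0.54 and an adjusted p of 0.025. Over 36 pairs of same-numbered libraries the median correlation of deviations from the group mean was -0.0122, with 4 pairs over 0.1. This gave no sign of pairing by number, but it cannot exclude a pairing that touches few genes. With the replicate number as a block, 12 weeks against 1 day called 9 members higher and 15 lower, beside 16.4% and 15.4% of all genes. That model called 12 and 11 for 12 weeks against 3 days (15.0% and 14.7%), and 0 and 2 for 3 days against 1 day (0.903% and 1.08%). In simulations of 12 weeks against 3 days, at the depth and number of these libraries, the test found 56.2% of the genes given a 1.5-fold change. Each gene had 1 spread shared by all groups, and the changed genes were drawn at random from all 15065. The wider spread at 12 weeks was thus not simulated, and the recovery does not describe the more variable members. The part of depth alone was not tested.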
